A study of Mus musculus with 3 samples.

Results

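The genes described here encode the microtubule system and the cell polarity complex of mouse plasmacytoid dendritic cells: the kinesin motors (symbols that start with Kif and a digit), the alpha, beta and gamma tubulins (Tuba, Tubb and Tubg and a digit) and the polarity genes Pard3, Pard6a, Pard6b, Pard6g, Prkcz and Prkci. They were matched by symbol, and 58 of the 19505 genes named on the array matched: 35 kinesins, 17 tubulins and 6 polarity genes. This choice, and that of the related gene lists below, was made with earlier results of these data known. Of these 58, 45 lay above the background level used here, a mean over the arrays of 5.28 or more on the log2 scale, the 95th percentile over 1410 genes for olfactory and vomeronasal receptors.

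Plasmacytoid dendritic cells are specialised producers of type I interferon, and the labels name an interest in how plant compounds affect their migration. There were 3 arrays: 1 of cells exposed to astragaloside IV (an Astragalus saponin), 1 of cells exposed to oxymatrine (a Sophora alkaloid) and 1 of control cells. All cells were grown from the marrow of wild-type male BALB/c mice aged 4 to 5 weeks in Flt3 ligand (100 ng/mL), kept in culture for 6 to 9 days, matured by CpG oligodeoxynucleotides and then sorted. The compounds were present for 12 h before the chemokine CCL21 was added for 1 h. The labels give no doses and do not say what the control cells were given. If they had no CCL21, the effects of chemokine and compound cannot be told apart in any contrast with control. How many mice or cultures stand behind an array is not stated either. There were no replicates: each value is that of a single array, no test or error can be given for a difference, and in RNA from a cell population fewer cells of a type and less RNA per cell cannot be told apart.

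Microtubules are hollow tubes of alpha and beta tubulin that grow from gamma tubulin rings, most of them at the centrosome. Kinesins walk along them with cargo, or slide, bundle and shorten them, and a large subset works mainly in dividing cells. In migrating leukocytes the centrosome and its microtubules are placed relative to the direction of travel, and the PAR complex, made of Pard3, a Pard6 protein and an atypical protein kinase C (Prkci or Prkcz), is a general organiser of front and rear in animal cells.

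Of 18 measured plasmacytoid dendritic cell markers, 16 were above background, and Tcf4, a transcription factor these cells need to keep their identity, was at 14.37 in each array. In control the 16 ran from 5.52 (Atp1b1) to 15.05 (Irf7), with Siglech at 8.99. Markers of other cells were detected too, in 9 of 12 cases for conventional dendritic cells, 8 of 8 for monocytes and macrophages, 3 of 12 for neutrophils, 3 of 10 for T and NK cells, 2 of 7 for B cells, 2 of 7 for erythroid and mast cells and 1 of 8 for neurons. Some were as bright as Tcf4. In control the 8 monocyte and macrophage markers ran from 7.39 (Mertk) to 14.12 (Adgre1). The 9 conventional dendritic cell markers ran from 5.47 (Zbtb46) to 14.90 (Sirpa). As levels of different genes are not comparable, they give no share of any cell type, and the purity of the cells is not known. The 3 detected neutrophil markers differed from control by between -0.51 and -0.26 with astragaloside IV and by between -0.27 and 0 with oxymatrine. The lymphocyte receptor gene Il2rb differed by -1.01 and -0.84. Of the other detected T and NK markers, Cd5 differed by -0.45 with each compound and Gzma by 0. Of the 9 detected conventional dendritic cell markers 6 were lower with each compound, and 1 and 2 were higher. In these comparisons 40.8% and 46% of all genes above background were lower. The medians of the 9 were -0.08 and -0.20. Among them the integrin gene Itgae differed by -0.73 and -0.49, Zbtb46 by 0.14 and 0.27 and Sirpa by 0. The plasmacytoid markers ran from -0.30 to 0.01 and from -0.48 to 0.06 in the same comparisons, and the part of such shifts in the values below was not tested. The median over all named genes was 5.75 with astragaloside IV, 5.78 with oxymatrine and 5.75 in control. The SD of the difference over genes of similar brightness, which is the yardstick used beside single genes and is no replicate error, shrank with level. For astragaloside IV minus control it was 0.29 among the dimmest of 20 level bins and 0.08 among the brightest, and for oxymatrine minus control 0.32 and 0.11.

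**Figure D1:**
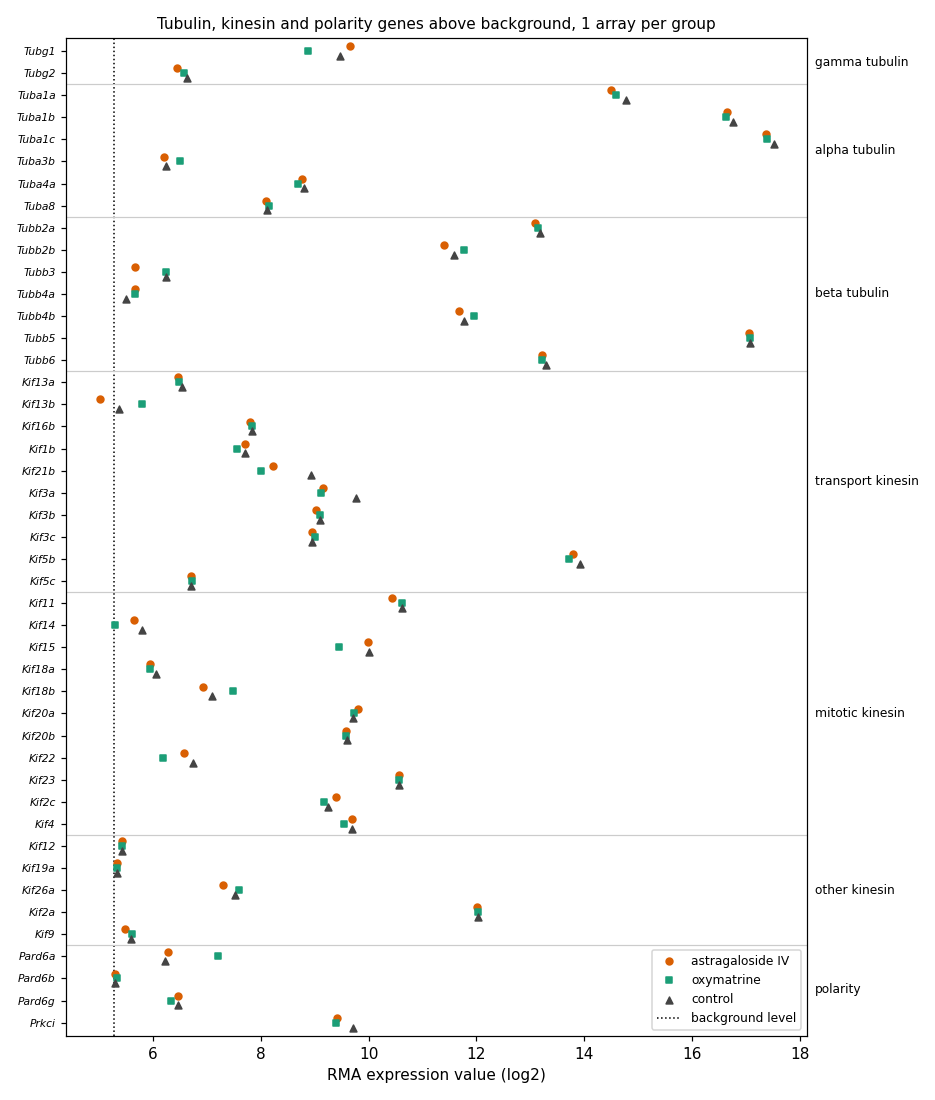
Expression values (log2, horizontal axis) of the 45 genes above background in the astragaloside IV, oxymatrine and control arrays, 1 point per array, grouped by role. The dotted line is the background level of 5.28. Points of a gene mostly lie close together, with Kif21b, Kif3a, Tubg1, Pard6a and Kif13b among the exceptions. Levels of different genes are not comparable, because each probe set has its own response.

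Gamma tubulin starts new microtubules, and among the tubulins a gamma tubulin differed most between the treated arrays. Tubg1 (Entrez gene 103733), which encodes the principal gamma tubulin, was at 9.66 with astragaloside IV and 8.87 with oxymatrine, against 9.47 in control. The oxymatrine array was the low array and the astragaloside IV array the high array. Oxymatrine minus control was -0.60, which is 1.52-fold lower and -3.01 times the SD at its level, whereas astragaloside IV minus control was 0.19, or 1.07 times that SD. Between the compounds, astragaloside IV minus oxymatrine was 0.79, a 1.73-fold difference and 4.02 times the SD. The difference from control with oxymatrine lay between -0.63 and -0.54 over the deposited values and 3 other scalings, and passed 1.5-fold in 2 of these 4 settings. Tubg2, its close paralog, was at 6.44 with astragaloside IV and 6.58 with oxymatrine, against 6.63 in control, so its 3 values spanned a narrower range.

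Partners of gamma tubulin in the ring complex and at the centrosome were mostly level. Among 12 of them above background, 6 were higher and 3 lower with astragaloside IV and 4 were higher and 5 lower with oxymatrine, with medians of 0.01 and 0. Tubgcp5, a subunit of the gamma tubulin ring, was at 8.20 with astragaloside IV and 7.62 with oxymatrine, against 8.32 in control. Its oxymatrine difference of -0.71 was the only one of the 12 past 1.5-fold in either comparison with control. In these comparisons 2.13% and 3.31% of all genes above background passed 1.5-fold, and 40.8% and 46% were lower by any size. Cdk5rap2, which anchors the rings at the centrosome, differed by -0.23 with each compound. Nedd1, which recruits the rings, was 0.19 above control with astragaloside IV and equal to it with oxymatrine. Of the rarer tubulins of centrioles, Tubd1 was at 7.75 with astragaloside IV and 7.45 with oxymatrine, against 7.39 in control, and Tube1 was at 7.34 in each array.

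The alpha and beta tubulins, the building blocks of the polymer, lay slightly lower in the astragaloside IV array almost without exception. All 6 alpha tubulins above background and 6 of 7 beta tubulins were lower than control. With the gamma tubulins, 13 of 15 tubulins, or 86.7%, were lower by any size and 2 higher, where 40.8% of all 10671 genes above background were lower and 31.4% higher. Their median difference was -0.09, against 0 for all genes. After quantile normalisation 5 of 6 alpha tubulins were lower. The lower count over all tubulins was 13, 12 and 13 of 15 after centring on the median, quantile normalisation and lowess centring. None reached 1.5-fold in this comparison. Many of the differences were small beside the SD of genes of similar level. The alpha tubulins ran from -3.42 times that SD (Tuba1a) to -0.08 times (Tuba8). The beta tubulins ran from -2.25 times (Tubb3) to 0.65 times (Tubb4a), with Tubb5 at -0.26, Tubb6 at -0.65 and Tubb2a at -0.76. The counts take each gene as separate, although near identical tubulins can share signal.

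Tuba1a, an alpha tubulin abundant in many cells, was at 14.50 with astragaloside IV and 14.58 with oxymatrine, against 14.78 in control. Both treated arrays lay below control, by -0.27 and -0.19, and the first is -3.42 times the SD of genes this bright. Tuba1b was at 16.65 with astragaloside IV and 16.64 with oxymatrine, against 16.77 in control. Tuba1c was at 17.38 with astragaloside IV and 17.40 with oxymatrine, against 17.51 in control. Control was the high array for these 3 neighbours of the alpha tubulin family. Their coding sequences are near identical, so probes can pick up transcripts of each other and the 3 may not be independent measurements. The same holds for Tubb2a and Tubb2b and for Tuba3a and Tuba3b.

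Among the beta tubulins, Tubb5, the main form in blood cells, was at 17.05 with astragaloside IV and 17.07 with oxymatrine, against 17.07 in control, and so hardly differed. Tubb6 was at 13.22 with each compound, against 13.30 in control. Tubb2a was at 13.09 with astragaloside IV and 13.14 with oxymatrine, against 13.18 in control. In these 3 genes all values lay within 0.10 of one another, and control was the highest or level with the highest. Tubb2b was at 11.40 with astragaloside IV and 11.77 with oxymatrine, against 11.59 in control. Tubb4b, a broadly expressed beta tubulin, was at 11.67 with astragaloside IV and 11.95 with oxymatrine, against 11.77 in control. In this pair the control lay between the treated arrays, and astragaloside IV minus oxymatrine was -0.36 for Tubb2b and -0.28 for Tubb4b, or -2.56 and -1.96 times the SD of their level.

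Among beta tubulins above background the widest difference was that of Tubb3, the form known as a marker of neurons, at 5.66 with astragaloside IV, against 6.23 with oxymatrine and 6.23 in control. The difference of -0.57, -2.25 times the SD of its level, belongs to a dim probe set. Tubb4a was the only beta tubulin higher than control with astragaloside IV, at 5.67 with each compound, against 5.50 in control. Of 8 neuronal markers measured, only Map2 was above background, at 7.61 with astragaloside IV and 7.5 with oxymatrine, against 7.31 in control. The remaining alpha tubulins, Tuba3b, Tuba4a and Tuba8, differed from control by between -0.04 and -0.02 with astragaloside IV and by 0.26, -0.12 and 0.02 with oxymatrine.

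For the 8 tubulins with a mean level of 11 or more, where the SD between genes is small, the difference from control ran from -0.27 to -0.02 with astragaloside IV, so 8 of 8 were lower, also under the 3 other scalings. These are between -3.42 times the SD (Tuba1a) and -0.26 times (Tubb5). The 8 include Tuba1a, Tuba1b and Tuba1c, and Tubb2a and Tubb2b, which may not be independent measurements. Among all 3168 genes of that brightness 43.5% were lower, 31.4% higher and 25.1% equal in the same comparison. With oxymatrine the 8 ran from -0.19 to 0.18, with 6 lower and 2 higher, where 50.8% of genes that bright were lower, 28.6% higher and 20.6% equal. Between the compounds, 6 of the 8 were lower with astragaloside IV, 1 higher and 1 equal, where 30.9% were lower, 44.2% higher and 24.9% equal, but after centring on the median the split was 4 lower and 4 higher. Of all tubulins above background, 9 of 15 were lower with oxymatrine, or 60%, where 46% of all genes above background were. The oxymatrine count ran from 8 to 11 of 15 under other scalings. The median of the beta tubulins, 0 as deposited, was 0.04 after quantile normalisation and -0.03 after centring.

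Factors that fold tubulin and join its subunits were evenly split with astragaloside IV, where 6 of 17 folding genes were higher and 6 lower, with a median of 0. After centring on the median 11 were higher and 6 lower. With oxymatrine 2 were higher and 12 lower, with a median of -0.03, which was 0.03 after quantile normalisation. That scaling split them into 9 higher and 8 lower. As deposited, 40.8% of all genes above background were lower with astragaloside IV and 46% with oxymatrine. Cct4, a subunit of the chaperonin that folds tubulin and actin, was at 14.80 with astragaloside IV and 14.51 with oxymatrine, against 14.90 in control. The tubulin cofactor genes Tbca and Tbce differed by -0.05 and -0.03 with astragaloside IV and by -0.16 and -0.15 with oxymatrine. Arl2, a small GTPase of the same assembly, differed by -0.22 with each compound.

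**Figure D2:**
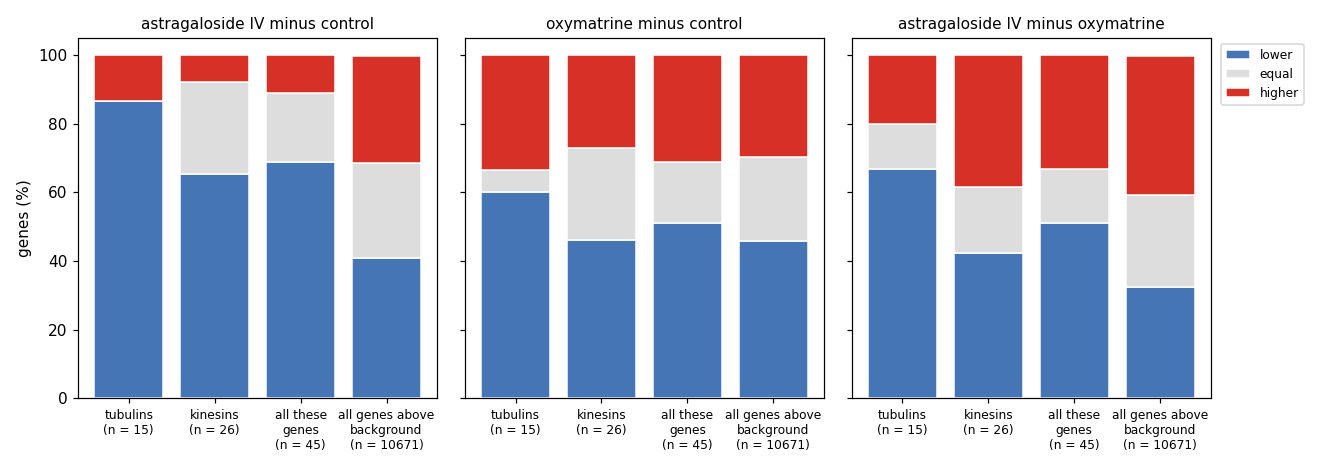
Percent of genes lower (blue), exactly equal (grey) and higher (red) in each comparison, for tubulins (15 genes), kinesins (26), all tubulin, kinesin and polarity genes above background (45) and all genes above background (10671). Tubulins stand at 86.7% lower for astragaloside IV minus control, against 40.8% of all genes.

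Over all 45 genes, 31 were lower, 5 higher and 9 exactly equal with astragaloside IV, so 68.9% were lower where 40.8% of all genes were. Over all 58 genes matched by symbol, 34 were lower and 7 higher. The median of the 45 was -0.08, against 0 for all genes above background. Exact ties are frequent in the deposited values, and 27.7% of all genes were tied in this comparison. After centring on the median 31 of the 45 were still lower and 14 higher, while 40% of all genes were lower. At 2-fold or more there were 0 of 45, where 0.197% of all genes passed. At 1.5-fold or more there were 2 of 45, Kif21b and Kif3a, both lower, where 2.13% of all genes passed in either direction, 1.28% as lower and 0.843% as higher.

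With oxymatrine 23 of the 45 were lower, 14 higher and 8 equal, so 51.1% were lower where 46% of all genes were, a share near the background. Of all genes 29.7% were higher and 24.4% equal. Of all 58 genes, 24 were lower and 21 higher. The split of the 45 became 35 lower and 10 higher after centring on the median, which also put 74.6% of all genes on the lower side. The median of the 45 rounded to 0. At 2-fold or more there were 0 of 45, where 0.281% of all genes passed. At 1.5-fold or more there were 4, where 3.31% of all genes passed. Kif21b, Kif3a and Tubg1 were lower, where 2.01% of all genes were, and Pard6a was higher, where 1.3% were. As both comparisons use the same control array, a low or high control value enters both.

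Among the 45 genes, the largest differences below control were those of 2 transport kinesins. Kif21b (Entrez gene 16565), a kinesin of the kinesin-4 family that restrains microtubule growth, was at 8.23 with astragaloside IV and 8.01 with oxymatrine, against 8.93 in control. Both treated arrays lay well below the control array and close to each other. Astragaloside IV minus control was -0.70, a 1.63-fold lower value and -3.39 times the SD at its level. Oxymatrine minus control was -0.92, a 1.89-fold lower value and -4.0 times that SD. Over the same 4 settings the first ran from -0.70 to -0.67 and the second from -0.95 to -0.86, so both passed 1.5-fold each time. Between the compounds the difference was 0.22, or 1.02 times the SD. Its relative Kif21a lay below background in each array, at 4.17.

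Kif3a (Entrez gene 16568), a motor subunit of kinesin-2, was at 9.15 with astragaloside IV and 9.11 with oxymatrine, against 9.76 in control. Again the control array was the high array, and the treated arrays differed from each other by only 0.04. The differences from control were -0.61 with astragaloside IV and -0.65 with oxymatrine, 1.52-fold and 1.56-fold lower, or -3.41 and -3.22 times the SD at that level. After quantile normalisation the astragaloside IV difference was -0.58, just short of 1.5-fold.

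Kinesin-2 is built from Kif3a, a second motor subunit (Kif3b or Kif3c) and the adaptor Kifap3, and the partners did not show the difference of Kif3a. Kif3b was at 9.02 with astragaloside IV and 9.10 with oxymatrine, against 9.10 in control. Kif3c was at 8.95 with astragaloside IV and 9.01 with oxymatrine, against 8.95 in control. Kifap3 was at 9.89 with astragaloside IV and 10.04 with oxymatrine, against 9.89 in control. None of these 3 partners was more than 0.16 from control in either comparison. Kinesin-2 also drives intraflagellar transport in cilia, and among 13 detected genes of that transport system and the BBSome, 7 lay below control and 5 above it in the astragaloside IV array and 9 below and 3 above in the oxymatrine array, with medians of -0.01 and -0.17. After quantile normalisation the astragaloside IV split turned to 6 below and 7 above. With astragaloside IV the low end was Bbs2, which differed from control by -0.55 and at 5.27 lay just below background there. With oxymatrine it was Ift172, a subunit of the transport particle, at 6.48 with astragaloside IV and 5.93 with oxymatrine, against 6.98 in control. The oxymatrine difference of -1.05 for Ift172 was the only one of the 13 at 2-fold or past 1.5-fold. With oxymatrine 0.281% and 3.31% of all genes above background passed these sizes. By any size 40.8% of all genes were lower with astragaloside IV and 46% with oxymatrine.

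Of the sequences around the starts of these genes, that of Kif3a is shown because it was lower with each compound and its promoter is in the table used, from RefSeq on build GRCm38.p6, which holds 55 promoters for 47 of the 58 genes. The sequence gives the 250 bases before a Kif3a start, chr11:53567119-53567368, plus strand, 5′ to 3′. Capitals mark a CCAAT box read on the reverse strand (ATTGG), which overlaps a GC box (GGGCGG) and lies just before the start.
Kif3a: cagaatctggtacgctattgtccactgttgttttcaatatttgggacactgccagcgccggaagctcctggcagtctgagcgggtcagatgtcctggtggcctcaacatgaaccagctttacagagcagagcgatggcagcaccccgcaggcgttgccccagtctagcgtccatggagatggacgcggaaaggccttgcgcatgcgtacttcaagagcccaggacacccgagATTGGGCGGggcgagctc
Of 32851 promoters of 300 bases in the table, 37.4% hold CCAAT and 35.7% hold GGGCGG on either strand, so these letters are common. They are given as a description of the sequence.

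Among other carriers, Kif5b, the kinesin-1 heavy chain found in most tissues, was at 13.79 with astragaloside IV and 13.72 with oxymatrine, against 13.92 in control. These differences of -0.13 and -0.20 are -1.25 and -1.56 times the SD of genes that bright. Its light chain partners, which bind cargo, differed little: Klc1 was equal to control with astragaloside IV and 0.08 above it with oxymatrine, and Klc4 was equal in the 3 arrays. In all, 5 kinesin partner genes were above background, of which 0 were lower in either comparison with control. With astragaloside IV 5 were equal, and with oxymatrine 3. Of all genes above background, 40.8% and 46% were lower and 27.7% and 24.4% equal in these comparisons. Kif5c, a relative of Kif5b best known from neurons, was at 6.71 with astragaloside IV and 6.72 with oxymatrine, against 6.71 in control, and Kif5a was below background.

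Kif13b (Entrez gene 16554), a motor that carries the polarity scaffold Dlg1, was at 5.01 with astragaloside IV and 5.80 with oxymatrine, against 5.37 in control. It was the only one of the 45 with an array below background, that of astragaloside IV, so its measured difference of -0.78 for astragaloside IV minus oxymatrine is not given as a fold. Taken against the background level, the oxymatrine value was at least 1.43-fold higher than that with astragaloside IV. Oxymatrine minus control was 0.43. Its relative Kif13a, a motor of recycling endosomes, was at 6.46 with astragaloside IV and 6.49 with oxymatrine, against 6.53 in control. Kif16b, which moves early endosomes, was at 7.79 with astragaloside IV and 7.84 with oxymatrine, against 7.84 in control. Kif1b, a motor of mitochondria and vesicle precursors, was at 7.71 with astragaloside IV and 7.55 with oxymatrine, against 7.71 in control. The endosome and mitochondrion motors thus lay within 0.16 of control, unlike Kif21b and Kif3a.

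Over the 10 transport kinesins above background, 7 were lower and 3 equal with astragaloside IV, with a median of -0.08. With oxymatrine 5 were lower, 3 higher and 2 equal, with a median of -0.02, which was 0.01 after quantile normalisation. The whole set of 10671 genes had 40.8% below control and 31.4% over it in the astragaloside IV array. For oxymatrine these shares were 46% and 29.7%, so 5 of 10 was near the share of all genes. Dynein, the motor that walks the other way, had 24 genes of its complex, its dynactin partner and its adaptors above background, of which 10 were higher and 8 lower with astragaloside IV and 5 higher and 14 lower with oxymatrine, with medians of 0 and -0.015. The oxymatrine split was 16 higher and 8 lower after quantile normalisation, so no direction is given for it. Dynll2, a dynein light chain, was at 8.94 with astragaloside IV and 8.96 with oxymatrine, against 8.55 in control, and was the member with the widest difference from control in both.

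**Figure D3:**
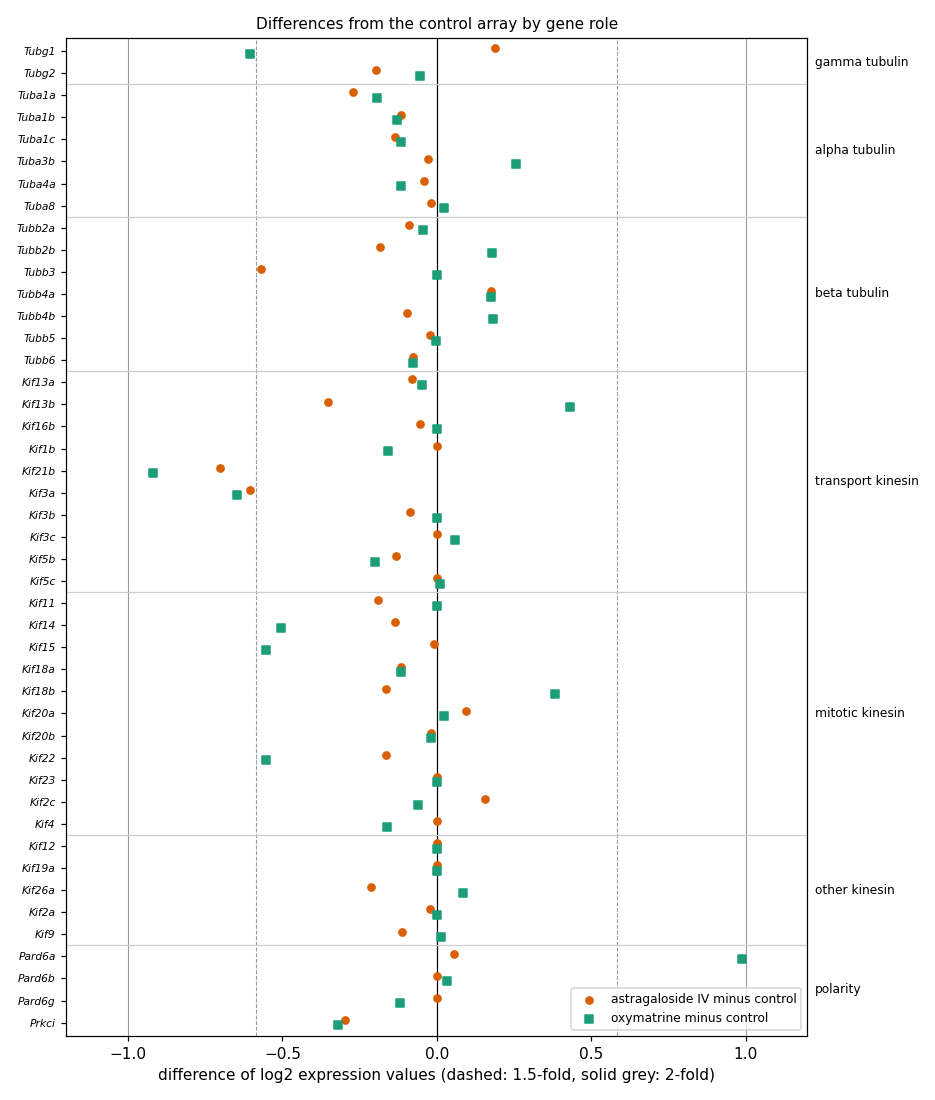
Differences from the control array (log2, horizontal axis) for the 45 genes above background, grouped by role. Dashed lines mark 1.5-fold and solid grey lines 2-fold. Kif21b and Kif3a lie past 1.5-fold on the lower side with both compounds, Tubg1 on the lower side and Pard6a on the higher side with oxymatrine.

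The mitotic kinesins, which build the spindle and finish cell division, were all 11 above background in these sorted cells. With astragaloside IV 7 were lower, 2 higher and 2 equal, with a median of -0.02 and a range from -0.19 to 0.16, where 40.8% of all genes were lower. After quantile normalisation 5 were lower and 6 higher. With oxymatrine 7 were lower, 2 higher and 2 equal, with a median of -0.06 and a range from -0.55 to 0.38, where 46% of all genes were lower. This split was 10 lower and 1 higher after centring on the median, and 6 lower and 5 higher after quantile normalisation and after lowess centring. None passed 1.5-fold from control with either compound.

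Kif15, a motor that helps to keep the spindle bipolar, was at 9.99 with astragaloside IV and 9.45 with oxymatrine, against 10.00 in control. The oxymatrine array alone was low, by -0.55 against control, -2.80 times the SD at its level, and astragaloside IV minus oxymatrine was 0.54, or 3.08 times. Kif11, the main motor of spindle bipolarity, was at 10.43 with astragaloside IV, against 10.62 with oxymatrine and 10.62 in control. For this motor the astragaloside IV array was the low array instead.

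The chromokinesin Kif22, which pushes chromosome arms, was at 6.57 with astragaloside IV and 6.19 with oxymatrine, against 6.74 in control. Kif14, a motor of cytokinesis, was at 5.65 with astragaloside IV and 5.28 with oxymatrine, against 5.79 in control. Both were lowest with oxymatrine, by -0.55 and -0.50 against control, and Kif14 there stood at the background level. Kif18b, which shortens astral microtubules, was instead highest with oxymatrine, at 6.92 with astragaloside IV and 7.47 with oxymatrine, against 7.09 in control.

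Kif23, a component of centralspindlin at the cell midzone, was at 10.57 in each array. Kif20a, a motor of the late spindle, was at 9.80 with astragaloside IV and 9.73 with oxymatrine, against 9.70 in control. Kif20b differed by -0.02 from control with each compound. Kif2c, a depolymerase at centromeres, was at 9.39 with astragaloside IV and 9.17 with oxymatrine, against 9.24 in control. Kif4, a chromokinesin of the midzone, was at 9.69 with astragaloside IV and 9.53 with oxymatrine, against 9.69 in control, and Kif18a, which dampens chromosome movement, differed by -0.12 with each compound. Of the motors of the midzone and of cytokinesis, Kif14 with oxymatrine lay farther from control than Kif4, Kif20a, Kif20b and Kif23. However, Kif14 stood there at the background level, where the SD between genes is 0.30, against 0.20 for Kif4. In units of these SDs the differences were -1.70 for Kif14 and -0.80 for Kif4.

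Markers of dividing cells were more often lower than higher. Of 17 detected spindle and cell cycle genes, 13 lay below control and 1 above it in the astragaloside IV array and 12 below and 4 above in the oxymatrine array, with medians of -0.17 and -0.18. Of all genes, 40.8% and 46% were lower in these comparisons. Under the other scalings 12 were lower with astragaloside IV, where between 38.4% and 41.6% of all genes were. With oxymatrine 12 were lower after quantile normalisation and lowess centring, and 14 after centring on the median, which put 74.6% of all genes lower. Prc1, the bundler of midzone microtubules that works with Kif4, was at 7.56 with astragaloside IV and 7.06 with oxymatrine, against 7.94 in control. Tpx2, a spindle assembly factor, was at 9.48 with astragaloside IV and 9.63 with oxymatrine, against 10.02 in control. Ect2, the exchange factor that centralspindlin recruits, was at 8.93 with astragaloside IV and 8.31 with oxymatrine, against 9.00 in control. Whether a different share of dividing cells had a part in the kinesin or tubulin values was not tested.

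The starts of the mitotic kinesin genes share a short sequence that the choice of genes did not use. The letters TTTGAA, those of the cell cycle homology region, which in promoters of genes of late cell cycle binds the repressor complex DREAM and its activating relatives, occurred on either strand in 9 of 10 mitotic kinesin promoters in the RefSeq table (250 bases before to 50 after the start). They occurred in 17.9% of all 32851 promoters of that length and in 4 of 45 promoters of the other tubulin, kinesin and polarity genes. Windows of 30 bases around the site are shown for 7 of these genes in which it lies within 20 bases of the start, 5′ to 3′ on the strand of the gene and on build GRCm38.p6, with capitals for TTTGAA or its reverse complement TTCAAA.
Kif11, chr19:37376351-37376380, plus strand: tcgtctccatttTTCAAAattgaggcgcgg
Kif15, chr9:122951050-122951079, plus strand: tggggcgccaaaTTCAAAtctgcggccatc
Kif18b, chr11:102925104-102925133, minus strand: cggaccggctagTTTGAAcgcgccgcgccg
Kif20b, chr19:34922353-34922382, plus strand: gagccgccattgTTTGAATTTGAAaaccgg
Kif22, chr7:127042420-127042449, minus strand: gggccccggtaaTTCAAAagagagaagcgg
Kif23, chr9:61946780-61946809, minus strand: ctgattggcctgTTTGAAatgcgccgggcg
Kif4, chrX:100626072-100626101, plus strand: ctctgggatcaaTTTGAAacttggcggtta
In Kif11, Kif15 and Kif22 the site begins 19, 19 and 17 bases before the start. In Kif18b, Kif20b, Kif23 and Kif4 it begins 3, 7, 2 and 19 bases after it, and Kif20b has a pair of adjoining copies. Kif14 and Kif2c hold the letters farther upstream, at 228 and 103 bases before the start, and Kif18a is the promoter without them. A match of letters is not evidence of binding. With oxymatrine Kif22 differed from control by -0.55 and Kif18b by 0.38, and any part of the site in such values was not tested.

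The 5 remaining kinesins above background were near control. Kif2a, a depolymerase that also trims microtubule minus ends, was at 12.01 with astragaloside IV and 12.03 with oxymatrine, against 12.03 in control. Kif26a, a kinesin without motor activity, was at 7.30 with astragaloside IV and 7.60 with oxymatrine, against 7.51 in control. Kif9 differed by -0.11 and 0.01, and Kif12 and Kif19a were identical in the 3 arrays, at 5.41 and 5.33. Of the 26 detected kinesins, 17 lay below control, 2 above it and 7 level with it in the astragaloside IV array, or 65.4% below where 40.8% of all genes were. In the oxymatrine array 12 lay below, 7 above and 7 level, or 46.2% below where 46% of all genes were. Under the other scalings 17 or 18 were lower with astragaloside IV. With oxymatrine 13 or 14 were lower after lowess centring and quantile normalisation, and 22 after centring on the median, which put 74.6% of all genes lower.

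Genes that act on the microtubule lattice were mixed. Of 23 microtubule-associated protein genes above background, 8 were higher and 8 lower with astragaloside IV. With oxymatrine 6 were higher and 12 lower, and the medians were 0 and -0.01. In these comparisons 40.8% and 46% of all genes above background were lower. Stmn3, a tubulin-binding destabiliser of the stathmin family, was at 6.06 with astragaloside IV and 6.57 with oxymatrine, against 5.34 in control. It was lowest in control and past 1.5-fold with each compound, by 0.72 and 1.23, the second past 2-fold, from a control value just above background. Stmn3 was the only 1 of the 23 past 1.5-fold in either comparison. Of all genes above background 2.13% passed 1.5-fold with astragaloside IV and 3.31% with oxymatrine, where 0.281% passed 2-fold. Slain1, which promotes growth at plus ends, was at 6.56 with each compound, against 7.13 in control. Mtus1 was at 7.52 with astragaloside IV and 7.35 with oxymatrine, against 6.95 in control.

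Of 13 tubulin-modifying enzymes above background, 4 were higher and 4 lower with astragaloside IV and 4 higher and 5 lower with oxymatrine. Ttll1, a tubulin polyglutamylase, was at 9.04 with astragaloside IV and 8.69 with oxymatrine, against 8.45 in control. Ttll4, a polyglutamylase as well, was at 7.14 with astragaloside IV and 6.40 with oxymatrine, against 6.55 in control. Each was 0.59 above control with astragaloside IV, and these were the only 2 of the 13 past 1.5-fold in that comparison. Among all genes above background 2.13% passed it there, 0.843% as higher. By any size 40.8% of all genes were lower with astragaloside IV and 46% with oxymatrine. Hdac6, the tubulin deacetylase, differed by -0.26 with each compound.

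Polarity genes held the largest difference of any of the 45. Pard6a (Entrez gene 56513), the adaptor that links atypical protein kinase C and Cdc42 to Pard3, was at 6.28 with astragaloside IV and 7.21 with oxymatrine, against 6.22 in control. The oxymatrine array alone was high. Oxymatrine minus control was 0.99, a 1.99-fold higher value and 3.59 times the SD at its level, while astragaloside IV minus control was 0.06. Between the compounds, astragaloside IV minus oxymatrine was -0.93, or -3.67 times the SD. The oxymatrine difference ran from 0.96 to 1.03 under other scalings and so crossed 2-fold under some of them. In brightness this probe set lay where the spread between genes is wide, with an SD of 0.28 for that comparison.

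The other 2 Pard6 genes did not share this. Pard6b was at 5.29 with astragaloside IV and 5.32 with oxymatrine, against 5.29 in control, close to background. Pard6g was at 6.45 with astragaloside IV and 6.33 with oxymatrine, against 6.45 in control. Prkci, the atypical protein kinase C above background in these cells, was at 9.42 with astragaloside IV and 9.40 with oxymatrine, against 9.72 in control. Control was its high array, by 0.30 and 0.32, or -1.68 and -1.59 times the SD when counted as treated minus control. The scaffold Pard3, at 4.09 in each array, and the second atypical kinase gene Prkcz, at 4.96 with astragaloside IV and 4.63 with oxymatrine against 4.49 in control, lay below background, so no difference in them can be read from these arrays.

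The promoter of Pard6a is shown because of its difference with oxymatrine. It gives the 250 bases before the first of its listed starts in RefSeq, chr8:105700898-105701147, plus strand, build GRCm38.p6, 5′ to 3′. Capitals mark GC boxes, GGGCGG and on the reverse strand CCGCCC, and neither CCAAT nor TTTGAA occurs in it. The second listed start, not shown, has a CCAAT box 173 bases before it, read on the reverse strand.
Pard6a: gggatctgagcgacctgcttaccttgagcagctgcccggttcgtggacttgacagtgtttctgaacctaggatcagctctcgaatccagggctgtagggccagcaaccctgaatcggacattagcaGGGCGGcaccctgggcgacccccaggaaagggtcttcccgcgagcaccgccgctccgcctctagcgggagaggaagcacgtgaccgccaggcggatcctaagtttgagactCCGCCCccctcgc

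Around the PAR complex, 20 partner genes were above background, of which 7 were higher and 9 lower with astragaloside IV and 7 higher and 10 lower with oxymatrine, with medians of 0 and -0.01. Tiam1, the Rac exchange factor that binds Pard3, was at 5.83 with astragaloside IV and 5.48 with oxymatrine, against 6.45 in control. Its differences of -0.62 and -0.98 were the only ones of the 20 past 1.5-fold from control. In these comparisons 2.13% and 3.31% of all genes above background passed 1.5-fold, and 40.8% and 46% were lower by any size. Mark2, a kinase that opposes the complex, was at 6.49 with astragaloside IV and 6.76 with oxymatrine, against 6.92 in control. Dlg1, the scaffold carried by Kif13b, was at 9.60 with astragaloside IV and 9.63 with oxymatrine, against 9.86 in control, so both arrays of treated cells were lower by a similar amount.

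Compared directly, the 2 treated arrays differed at 1.5-fold or more in 3 of the 45 genes, where 2.58% of all genes did. Tubg1 was higher with astragaloside IV than with oxymatrine, as 1.46% of all genes were at that size, and Kif13b and Pard6a were lower, as 1.12% were. Kif13b counts by its measured difference although its astragaloside IV value lay below background, and with the background set at the 99th percentile of the receptor genes the count was 2. Of the 45, 0 reached 2-fold, where 0.159% of all genes did. By any size, 23 were lower with astragaloside IV, 15 higher and 7 equal, where 32.5% of all genes were lower, 40.7% higher and 26.7% equal. This split turned to 18 lower and 27 higher after centring on the median, which moved 73.6% of all genes to the higher side, so the direction of the group is not settled. The 5 beta tubulins that differed between the compounds were all lower with astragaloside IV, and after centring 4 of 7 beta tubulins were lower and 3 higher. Of the 11 mitotic kinesins, 6 were higher with astragaloside IV than with oxymatrine, 2 lower and 3 equal.

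**Figure D4:**
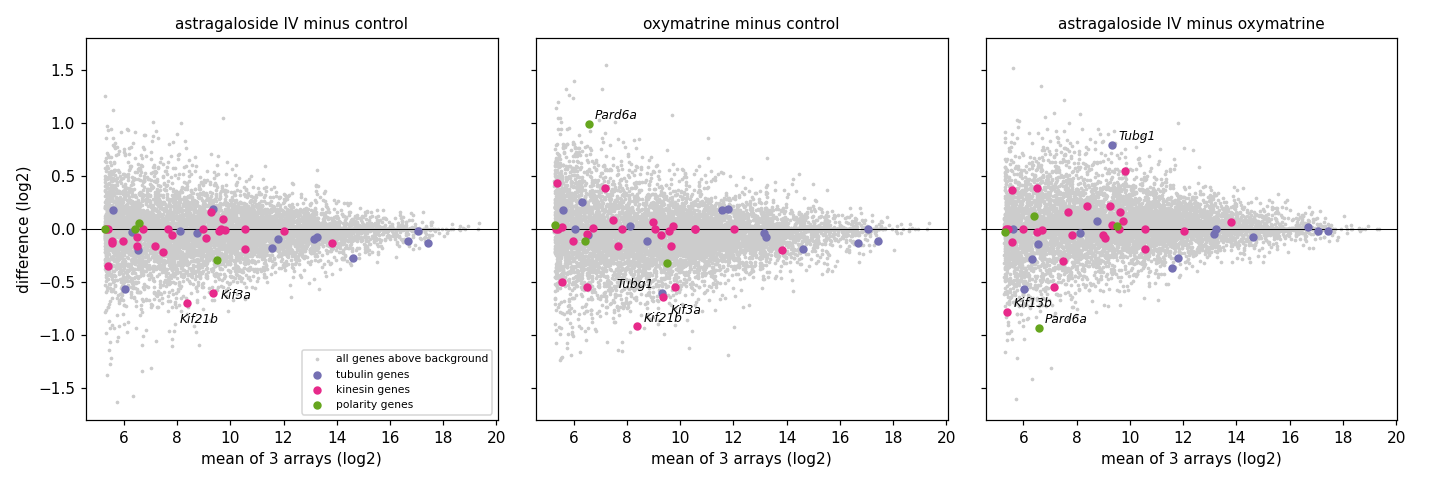
Difference of log2 values against the mean level over the 3 arrays for all 10671 genes above background (grey) and for tubulin, kinesin and polarity genes (coloured), 1 panel per comparison. Genes past 1.5-fold are named. Grey points fan out toward low levels, where the SD between genes is widest, and the 8 bright tubulins sit just below 0 in the panel of astragaloside IV minus control.

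Below background were 13 of the 58 genes: Kif1a, Kif2b, Kif4-ps, Kif5a, Kif6, Kif7, Kif21a, Kif24, Kif26b, Pard3, Prkcz, Tuba3a and Tubb1. Their differences from control ran from -0.72 to 0.69 with astragaloside IV and from -0.73 to 0.73 with oxymatrine, and 8 and 5 of them were tied exactly. Tubb1, the beta tubulin of platelets, passed the background level in the oxymatrine array only, at 5.48, against 4.75 with astragaloside IV and 4.75 in control. Kif4-ps is a transcribed pseudogene related to Kif4, whose probes could share signal with it.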

How the data were processed

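RNA from 3 samples was measured on 1 whole-transcript array each. For each probe set the authors deposited a log2 value from RMA, per the submitters' processing notes (its software is not given in the sources used here). Log base 2 was read off their range. Many values are tied exactly between arrays. With 1 array per group, precision is limited by the number of arrays.

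Of 28846 probe sets, 19572 had 1 gene symbol, 0 several and 9274 none in the platform annotation, and all 58 genes described matched RefSeq by Entrez identifier and symbol. The brightest of several probe sets stood for a gene. Comparisons are differences of log2 values with no test, counted at 2-fold and 1.5-fold and set beside all 10671 genes above background. Named with values were genes above background by role, genes past 1.5-fold, and up to 4 of each related list with the widest differences. The genes and lists were chosen with earlier results of these data known. Alternatives were other level filters, scalings, probe set rules, thresholds and subsets of the genes. The calculations were tested on simulated data. Figures were drawn with matplotlib 3.10.9, lowess used statsmodels 0.14.6, and all other steps ran in Python 3.11.15 with pandas 2.3.3, numpy 2.4.6 and scipy 1.17.1.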

Additional observations from a re-analysis of the deposited data

How the results depend on the processing

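No paired analysis was possible because each group has 1 array. Lowess centring used a fraction of 0.3. With no level filter the count at 1.5-fold or more was 4 for astragaloside IV minus control, 7 for oxymatrine minus control and 6 for astragaloside IV minus oxymatrine, and the median for astragaloside IV minus control was -0.027. The additions are genes below background. Quantile normalisation left 1 gene at 1.5-fold, Kif21b, for astragaloside IV minus control and put 1, Pard6a, at 2-fold for oxymatrine minus control, as did lowess centring with 1. Lowering the threshold to 1.3-fold gave 9 genes for oxymatrine minus control and 7 for astragaloside IV minus oxymatrine. Centring on the median put 77.8% of the 45 genes lower for oxymatrine minus control, where it put 74.6% of all genes lower. The other 104 recomputed counts, shares and medians stayed within set bounds. These were 1.5 times the count, the 95% binomial interval of the share and 0.05 of the median. All 540 recomputed differences of single genes stayed within the SD of genes of their level. Those from centring on the median could not fail. That scaling shifts every gene of a comparison by 1 constant, 0.004, -0.027 or 0.031, and the smallest such SD was 0.08. Some values could not change: no gene described had several probe sets, the only pseudogene lay below background, and 0 genes at 2-fold left none for a 3-fold threshold. The binomial interval takes the genes as independent, which they need not be, and is wide. It held even the turn to 18 lower and 27 higher for astragaloside IV minus oxymatrine after centring on the median. Without replicates, none of this measures the error of a difference.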
